A study of Mus musculus with 6 samples.

Results

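Of 48989 fixed tiles of 500 bp with at least 5 cytosine positions covered by 10 or more reads in all 6 libraries, 1320 (2.69%) were intermediately methylated in a stable way. The tiles were laid end to end from position 1 of chromosomes 1 to 19, and the level of a tile was its summed methylated calls over all its calls. A tile was a member when this level lay between 25% and 75% in every library and the highest and lowest library lay less than 15 points apart. Members were thus chosen by the tile levels of all 6 libraries, so the levels of the members and their small spread between libraries are descriptions and not findings. Of the other tiles, 25639 were under 25% in every library, 16907 were over 75% in every library and 5123 met none of these conditions. Of these 5123, 934 stayed between 25% and 75% in every library but spread over 15 points or more, so that 2254 tiles in all were in the band throughout. The levels came from reduced representation bisulfite sequencing, in which DNA is cut at CCGG by the enzyme MspI, short fragments are treated with bisulfite, and a cytosine that stays a cytosine is read as methylated. The DNA was that of right testes from mature KM mice. In 3 hemicastrated mice the left testis had been taken out before puberty, and 3 mice had a sham operation at that time; the labels name no further treatment or allele, and they call the sham-operated mice normal. Each mouse gave 1 library.

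Most CpGs of a mammalian genome are either methylated or unmethylated in nearly every cell, so a stable intermediate level in a tissue marks places where copies of the same DNA differ, between cell types, between cells of a type, between neighbouring CpGs or between the maternal and the paternal allele. At imprinted genes a control region is methylated on 1 parental allele in somatic cells. In male germ cells these marks are erased and set anew, so that control regions methylated on the maternal allele are unmethylated and the paternally methylated ones are methylated. A level measured in a whole testis sums over all its cells, and a smaller share of cells with methylated DNA cannot be told apart from less methylation per cell.

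Sequences of 4 member tiles are shown because they set side by side the ways in which a tile can average to an intermediate level. They are the parts of the tiles that lie in promoter windows of RefSeq genes (build GRCm38.p6), and capitals mark the CpGs whose levels were measured. The stretch of Gm30283, a predicted gene, is chr17:48423252-48423500 on the plus strand, and its 8 measured CpGs all lay between 31.0% and 38.9%. The stretch of Gm51541 is chr8:83583326-83583500 on the minus strand, and its 5 measured CpGs ran from 45.8% to 72.8%. The stretch of Gm13847 is chr6:31666001-31666159 on the plus strand, with CpGs at 4.64%, 90.5%, 87.9% and 13.7% in the order printed. The stretch of Gm33199 is chr8:120791501-120791734 on the plus strand, with 4.19%, 97.9%, 96.6% and 10.6%. In the first pair every measured CpG was intermediate, whereas in the second pair none was. In the second pair the first and the last measured CpG, both inside a CCGG, were the low ones. Of the CpGs in the stretch, 8 of 14 were measured in Gm30283 and 5 of 10 in Gm51541. Other member stretches, not printed, were less even. Measured CpGs were at 24.1%, 38.3% and 42.1% in Tnfsf13b and at 9.07%, 60.3% and 69.2% in Gm51876. Each of these held a CpG below the intermediate band beside intermediate ones.
Gm30283: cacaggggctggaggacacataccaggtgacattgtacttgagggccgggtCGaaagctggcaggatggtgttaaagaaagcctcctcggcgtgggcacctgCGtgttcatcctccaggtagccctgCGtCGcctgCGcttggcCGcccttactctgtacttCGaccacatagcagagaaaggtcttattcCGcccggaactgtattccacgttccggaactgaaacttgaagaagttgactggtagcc
Gm51541: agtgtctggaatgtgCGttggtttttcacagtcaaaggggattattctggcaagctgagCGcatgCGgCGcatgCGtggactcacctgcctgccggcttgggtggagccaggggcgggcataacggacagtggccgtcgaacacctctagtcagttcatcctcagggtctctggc
Gm13847: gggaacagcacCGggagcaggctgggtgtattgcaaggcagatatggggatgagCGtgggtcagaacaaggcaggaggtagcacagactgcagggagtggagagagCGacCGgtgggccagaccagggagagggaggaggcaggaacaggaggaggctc
Gm33199: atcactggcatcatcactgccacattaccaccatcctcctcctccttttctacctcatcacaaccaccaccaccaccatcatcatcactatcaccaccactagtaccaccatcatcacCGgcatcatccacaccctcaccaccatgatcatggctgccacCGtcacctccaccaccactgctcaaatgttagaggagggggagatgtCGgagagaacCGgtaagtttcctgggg

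Single positions were intermediate in only a part of the tiles. A position here is a cytosine on 1 strand, and its level was averaged over the 6 libraries. Of the 11378 positions of the members, 50.4% lay between 25% and 75%, 16.8% lay under 25% and 32.7% over 75%. Among all 800225 positions of eligible tiles, 4.25% were intermediate. An intermediate level in each of the 6 libraries, the stricter condition, was met by 3625 member positions (31.9%), and by 1.55% of all positions. Since positions make up the tile level, this contrast is a description.

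The members were divided by these position levels. In 403 tiles (30.5%), termed uniform, at least 80% of positions were intermediate. In 529 tiles (40.1%), termed split, at least 80% were outside the band, so that low and high positions averaged to an intermediate level. The other 388 (29.4%) were mixed. An intermediate tile level thus described the CpGs of uniform tiles and only the average of split ones. Of the positions in split tiles, 29.4% were low, 68.9% were high and 1.77% were intermediate, against 3.76% low, 2.56% high and 93.7% intermediate in uniform tiles. Mixed tiles stood between, with 16.9% low, 25.3% high and 57.8% intermediate positions. Under 10% of positions were intermediate in 479 of the 1320 members, and 90% or more were in 277.

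**Figure D1:**
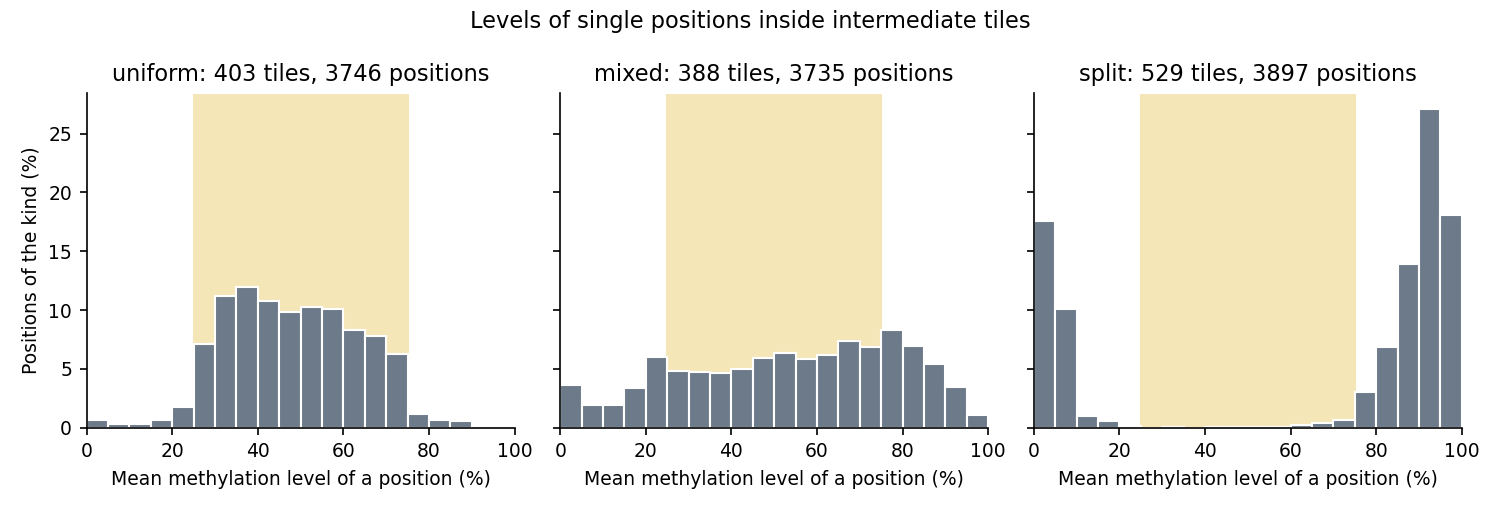
Histograms of the mean methylation level of single positions (x axis, %) as a share of all positions of the kind (y axis, %) for uniform, mixed and split tiles, in bins of 5 points, with the 25% to 75% band shaded. Uniform tiles hold 3746 positions of which 93.7% lie in the band, mixed tiles hold 3735 of which 57.8% do, and split tiles hold 3897 of which 1.77% do.

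The strands of a CpG were compared where both were measured. In 4538 such pairs inside members the median absolute difference between the strands was 2.67 points, and 92.5% of the pairs fell in the same class of low, intermediate or high. For uniform tiles the median was 3.52 points over 1603 pairs, and no pair differed by more than 50 points. Mixed tiles had a median of 3.07 points over 1571 pairs, of which 20 differed by more than 50 points and 85.6% fell in the same class. Split tiles had a median of 1.59 points over 1364 pairs, of which 18 differed by more than 50 points. Over all eligible tiles the median was 0.554 points, 98.7% of pairs were in the same class, and 174 of 344545 differed by more than 50 points, against 38 of the 4538 in members. Inside a uniform tile the highest and lowest CpG lay a median of 20.3 points apart, against 46.9 points in mixed and 90.9 points in split tiles. Every CpG was intermediate in 283 of the 403 uniform tiles.

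In 42 uniform tiles each position was intermediate in each library, and 11 of these had at least 10 positions. The one inside Psat1, which encodes an aminotransferase of serine synthesis, had the smallest span over libraries of these 11. This tile, chr19:15917001-15917500, had levels of 66.9%, 66.6% and 62.5% in hemicastrated mice and 60.9%, 64.5% and 59.7% in sham mice. The hemicastrated and sham values overlapped. Its 12 positions lay between 58.5% and 68.1%, with 145 reads per position and library. The widest Wilson 95% interval of a library was 2.43 points to either side. That interval takes all calls of the tile as independent, though a read can give calls at several CpGs, so it is likely too narrow.

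A tile at an end of the predicted gene Gm17994, chr8:57291501-57292000, had 52.6%, 53.2% and 48.4% in hemicastrated mice and 48.5%, 56.1% and 45.2% in sham mice, with 11 positions between 43.6% and 66.9%. A tile outside genes and 3571 bp from Vmn1r-ps64, a pseudogene of the vomeronasal receptors, was chr7:12206001-12206500. It had 43.1%, 46.1% and 38.7% in hemicastrated mice and 49.6%, 38.8% and 40.4% in sham mice, and its 17 positions lay between 35.5% and 50.4%. In both tiles the ranges of the 2 groups of mice overlapped, and no position left the intermediate band in any library.

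The other 3 tiles named by that rule were outside genes. The tile chr10:66719501-66720000 averaged 40.0% ± 6.01 in hemicastrated and 41.2% ± 2.62 in sham mice (SD, n = 3 each). The tile chr4:153099001-153099500 averaged 49.3% ± 1.65 in hemicastrated and 46.1% ± 5.96 in sham mice. The tile chr13:104616001-104616500, which is 14640 bp from Cwc27, a gene for a splicing factor, averaged 53.0% ± 6.97 in hemicastrated and 53.0% ± 4.82 in sham mice. Their positions ran from 37.0% to 46.2%, from 40.2% to 53.2% and from 45.7% to 57.0%, so that the CpGs of a tile were closer to each other than to either end of the scale.

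**Figure D2:**
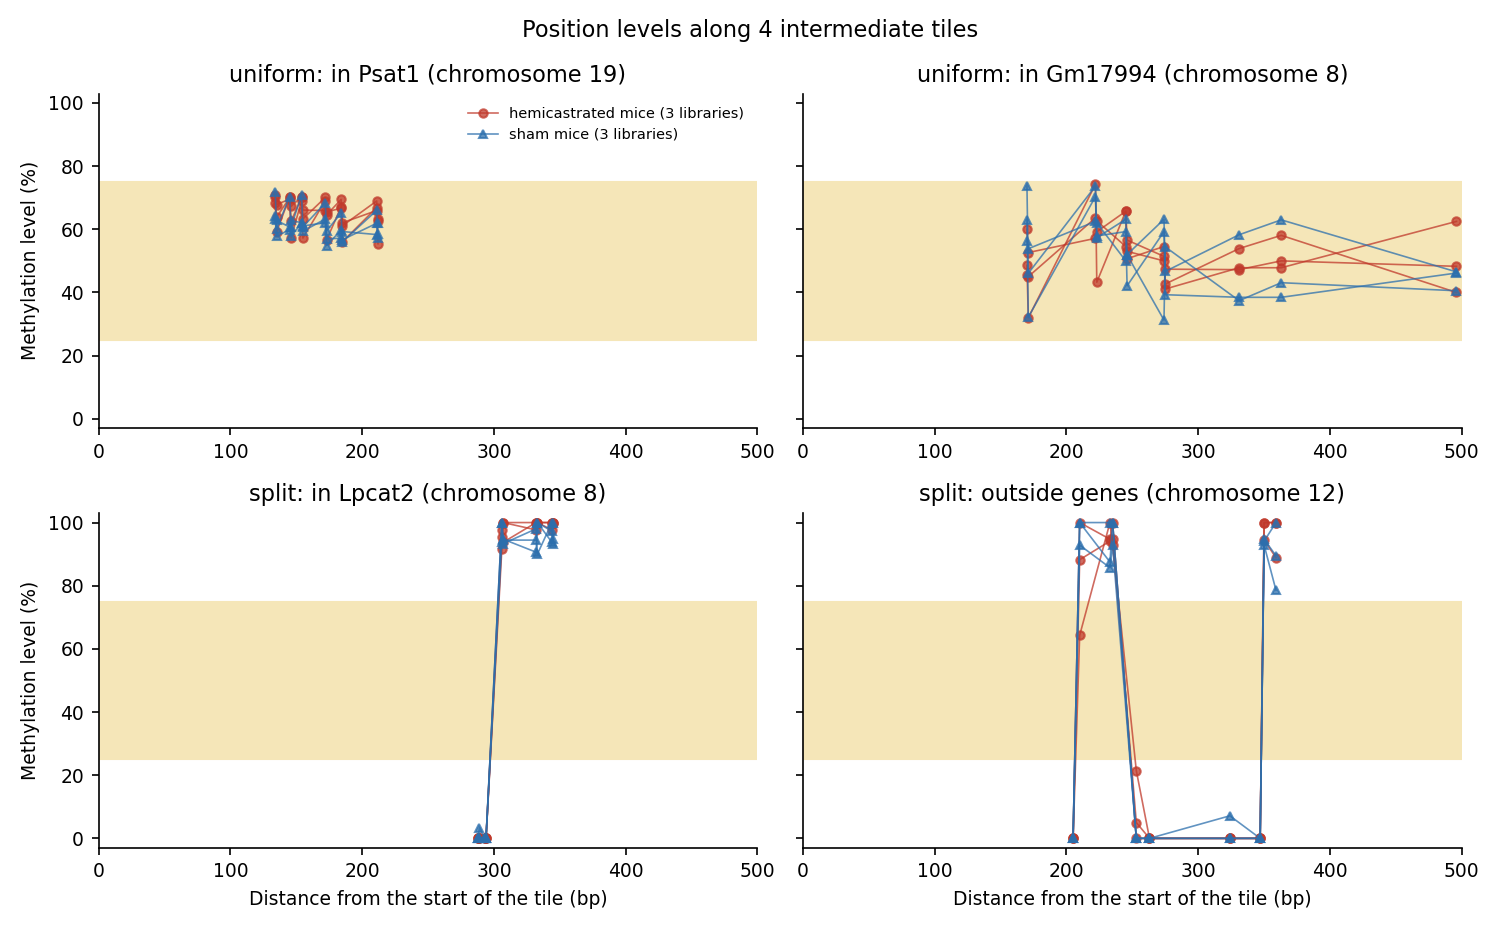
Methylation level (y axis, %) of each measured position against its distance from the start of the tile (x axis, bp) in 2 uniform tiles, in Psat1 and at Gm17994, and in 2 split tiles, in Lpcat2 and outside genes on chromosome 12, with hemicastrated mice as red circles, sham mice as blue triangles, a line per library and the 25% to 75% band shaded. The uniform tiles stay inside the band at all their 12 and 11 positions, and the split tiles have positions at both ends of the scale in all 6 libraries, with 4 low and 6 high ones in Lpcat2 and 5 of each on chromosome 12.

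Of the 403 uniform tiles, 20 had at least 20 positions, a set chosen after the values were seen. At genes lay 15 of the 20, a share close to the 77.6% of all eligible tiles that overlap a gene. The most positions, 52, were at an end of Pias4, which encodes a SUMO ligase. The tile chr10:81154001-81154500 had 37.9%, 30.3% and 33.4% in hemicastrated mice and 34.4%, 33.9% and 44.7% in sham mice. Of its positions 46 were intermediate and 6 low on average. The values of hemicastrated and sham mice overlapped, with sham replicate 3 the highest.

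Inside Abhd17a, the gene of an enzyme that removes palmitate from proteins, the mixed tile chr10:80586501-80587000 had 46 positions and averaged 34.0% ± 2.15 in hemicastrated and 30.8% ± 1.78 in sham mice (SD, n = 3 each). The tile with 50 positions, chr9:4260501-4261000, lay outside genes and had 31.5%, 36.2% and 40.1% in hemicastrated mice and 46.2%, 32.3% and 40.7% in sham mice. Inside Peli3, a gene of the Pellino ubiquitin ligases, chr19:4932501-4933000 had 61.4%, 58.2% and 48.9% in hemicastrated mice and 53.6%, 57.1% and 56.7% in sham mice over 34 positions. Inside Cdh22, a cadherin gene, chr2:165116001-165116500 had 54.7%, 54.3% and 48.6% in hemicastrated mice and 42.4%, 45.5% and 51.9% in sham mice. All 24 positions of the Cdh22 tile were intermediate in each library, and its neighbouring measured tiles had 0.563% and 91.5%.

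Among the 15 were also Cgn and Dsp. Inside Cgn, the gene of the tight junction protein cingulin, chr3:94779501-94780000 had 63.8%, 59.5% and 50.9% in hemicastrated mice and 51.1%, 54.6% and 62.0% in sham mice. Inside Dsp, the gene of the desmosome protein desmoplakin, chr13:38195501-38196000 had 29.1%, 40.5% and 30.1% in hemicastrated mice and 33.6%, 38.8% and 31.9% in sham mice. Its 20 positions lay between 26.2% and 40.5%, while the measured tiles on its sides were at 96.0% and 94.8%.

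At an end of Tubb4a, a beta tubulin gene, chr17:57081001-57081500 had 49.9%, 44.8% and 41.7% in hemicastrated mice and 43.0%, 39.4% and 48.8% in sham mice. Inside Slc39a4, the gene of a zinc importer of the gut, chr15:76616501-76617000 had 53.1%, 45.7% and 52.2% in hemicastrated mice and 55.1%, 58.4% and 59.9% in sham mice. At Slc39a4 all hemicastrated values lay below the sham values, and the tile is 1 of those without overlap counted below. Inside Pik3cd, which encodes a lipid kinase subunit of leukocytes, chr4:149659501-149660000 had 50.6%, 48.2% and 49.1% in hemicastrated mice and 42.0%, 50.4% and 55.3% in sham mice.

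**Figure D3:**
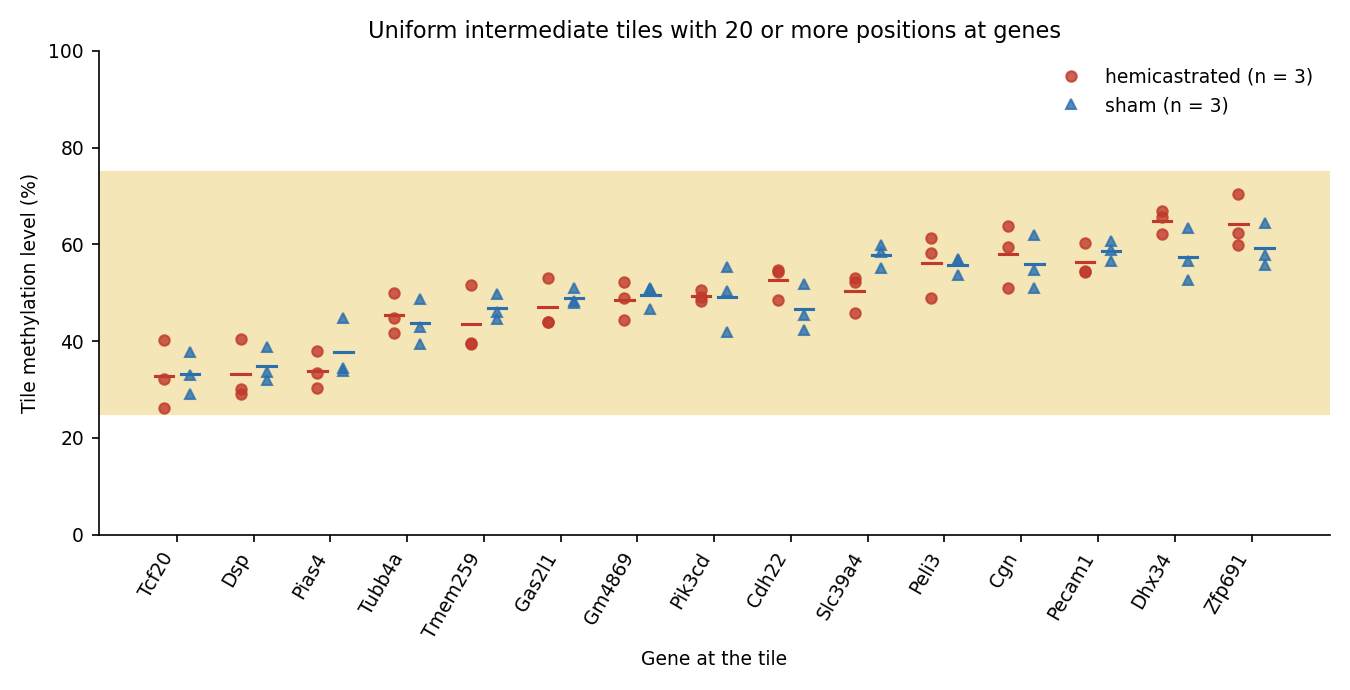
Tile methylation level (y axis, %) of the 15 uniform tiles with 20 or more positions at genes (x axis), ordered by mean level, with hemicastrated mice as red circles left of sham mice as blue triangles, short lines for group means and the 25% to 75% band shaded. Means run from 33.1% at Tcf20 to 61.7% at Zfp691, and at Slc39a4 all 3 hemicastrated values lie below the 3 sham values.

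Split tiles held low and high positions within the same 500 bp. The tile in Lpcat2, the gene of a lysophospholipid acyltransferase, chr8:92889001-92889500, had 58.6%, 58.4% and 59.4% in hemicastrated mice and 58.0%, 57.6% and 57.6% in sham mice. Of its 10 positions, 4 were under 25% and 6 over 75%, with means from 0% to 98.3%. Inside Zbtb40, a zinc finger gene, chr4:137041501-137042000 had 65.2%, 65.0% and 65.0% in hemicastrated mice and 64.6%, 64.2% and 64.8% in sham mice, from 4 low and 8 high positions. The 6 libraries spanned 1.77 points at Lpcat2 and 1.01 points at Zbtb40, and the rule selects for small spans. Over all split tiles a single position spanned a median of 7.84 points between libraries, and 27 of 3897 positions spanned over 40 points.

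The other split tiles named by the largest spread of position levels were outside genes. The tile chr12:26955501-26956000 averaged 47.6% ± 1.23 in hemicastrated and 47.0% ± 1.76 in sham mice (SD, n = 3 each). The tile chr6:121571501-121572000 averaged 56.7% ± 0.996 in hemicastrated and 56.1% ± 0.618 in sham mice. The library span of a split tile had a median of 4.40 points, against 9.0 points in mixed and 11.8 points in uniform tiles. The SD over the 6 libraries was 0.761 times the counting SD in split tiles at the median, 1.63 times in mixed and 1.86 times in uniform tiles. These ratios are descriptions, since the rule caps the spread and since a binomial SD at the tile mean overstates the counting error of tiles made of very low and very high positions. The counting SD also takes calls at neighbouring CpGs of the same read as independent. Where such calls agree, it understates the counting error, so a ratio over 1 does not show variation between mice.

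Split tiles had a median of 4 measured CpGs, and 916 of their 2564 CpGs were low. Of the 529 split tiles 190 had exactly 1 low CpG, 299 had exactly 2 and 39 had 3 or more. Going along the tile the level crossed 50% once in 126 tiles, 2 times in 291 and 3 times or more in 111. Of the low CpGs, 692 were measured on 1 strand, with a median level of 6.03%, and 224 on both strands, with a median of 0.456%. In 338 split tiles the low CpGs were all measured on 1 strand, and in 195 of these they were all the first or last CpG of the tile. Both the first and the last CpG were low in 165 of the 338. With so few CpGs in a tile many are first or last, and the share of edge CpGs over all CpGs was not computed.

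The MspI site itself could be read only inside promoter windows, for which sequence was at hand. The motif searched was CCGG, which reads the same on both strands and can overlap no other motif here. It occurs in 52.8% of the 32815 promoter windows of 300 bp in the RefSeq table. In tiles whose 2 highest positions averaged over 75%, 8 of 10 positions at CCGG were under 25% (median 8.94%), against 2 of 754 positions at other CG dinucleotides (median 92.0%). In split members all 6 positions at CCGG were low, between 4.19% and 13.7%, and 1 of 15 other positions was. Those of Gm13847 and Gm33199, printed above, are among the 6. Positions of split members are also in the 2 sets of the wider comparison, where they can make up as many as 6 of the 8 low positions at CCGG. Split tiles are members only through holding low positions beside high ones. Both contrasts thus follow at least in part, and possibly for the most part, from that choice, and the wider one is no separate support. Uniform members had 0 positions at CCGG and 43 at other CG dinucleotides there. The library protocol repairs the ends of the cut fragments, which fills the cut site with new cytosines, and no source used here says how reads were trimmed. The part of this step in the low CpGs, inside or outside the windows, was not tested. At 163 of the 224 low CpGs measured on both strands, each strand was under 5% in every library. With only those CpGs that were measured on both strands, a condition chosen after seeing the data, there were 765 members of 35777 eligible tiles (2.14%), of which 319 were uniform, 269 mixed and 177 split. Among tiles over 75% in every library 223 of 16907 (1.32%) had a position under 5% in every library, and 285 split and 11 uniform tiles did.

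A smaller share of the members than of all eligible tiles lay at genes and near transcription starts. Genes and their limits came from a RefSeq table of the same build. Of the 1320 members 797 (60.4%) overlapped a gene, against 77.6% of all eligible tiles, 67.4% of tiles over 75% and 88.99% of tiles under 25%. Within 1000 bp of a gene end lay 205 members (15.5%), against 44.7% of all, 10.8% of the high and 73.7% of the low tiles. Within 1000 bp of an annotated transcription start lay 89 members (6.74%), against 34.4% of all, 3.02% of the high and 62.0% of the low tiles. Outside genes lay 523 members (39.6%).

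By kind, a transcription start lay within 1000 bp of 3.59% of split tiles, 8.76% of mixed and 8.93% of uniform tiles. A gene was overlapped by 66.0% of split, 56.2% of mixed and 57.1% of uniform tiles. The uniform tiles overlapped 203 different protein-coding genes. Members were spread over all 19 chromosomes, from 2.20% of eligible tiles on chromosome 17 to 3.12% on chromosome 5.

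**Figure D4:**
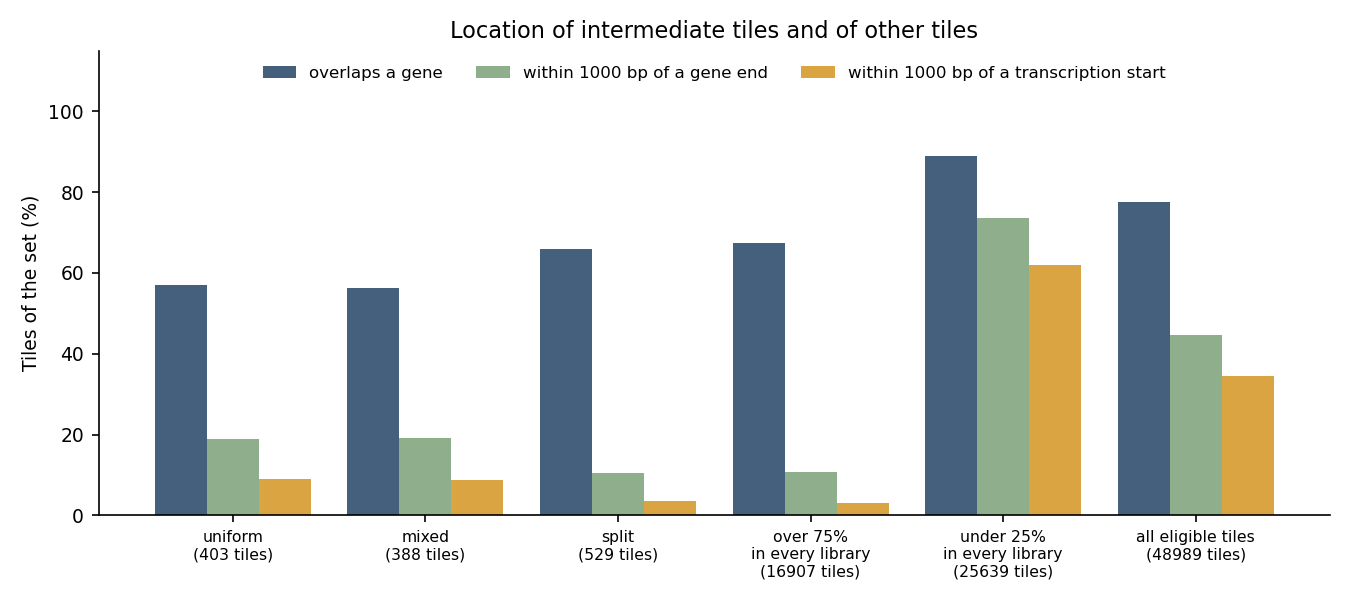
Share of tiles (y axis, %) that overlap a gene, lie within 1000 bp of a gene end and lie within 1000 bp of a transcription start, for uniform, mixed and split tiles, tiles over 75% in every library, tiles under 25% in every library and all eligible tiles. The bars for a nearby transcription start stand at 8.93%, 8.76% and 3.59% for the 3 kinds of intermediate tile, 3.02% for high, 62.0% for low and 34.4% for all tiles.

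The members had fewer measured positions than all eligible tiles, and the split ones among them had more reads. A member had a median of 8 positions, against 10 for all eligible tiles, 8 for high and 18 for low tiles. Its median reads per position and library were 64.8, against 56.6 for all tiles. By kind the median was 59.7 in uniform, 59.7 in mixed and 73.1 in split tiles, and it was 59.6 in tiles under 25%. Where a promoter window overlapped a member, in 12 windows, the window held a median of 6 CG dinucleotides, against 26 in windows of low and 8 in windows of high tiles. The median member level was 60.3%, made up of 48.0% in uniform, 60.7% in mixed and 65.0% in split tiles.

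Neighbouring tiles differed between the kinds. For 119 members an eligible tile was found within 5000 bp on both sides, and 30 of these (25.2%) lay between a tile under 25% and a tile over 75%. Such a boundary position was held by 16 of 47 uniform, 11 of 49 mixed and 3 of 23 split tiles. Among all eligible tiles with both neighbours it was 16.7%, and among tiles over 75% it was 26.3%, close to the members. Both neighbours were high for 17 of the 23 split tiles (73.9%) and for 2 of the 47 uniform tiles (4.26%), against 10.3% of all and 54.5% of high tiles. At least 1 neighbour was intermediate for 43 of the 119 members, 22 uniform, 21 mixed and 0 split, against 769 of 7893 eligible tiles. For 780 members no eligible tile lay within that distance on either side.

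Positions that the rule had left out, because some library had fewer than 10 reads there, gave a reading that the rule did not use, though from the same libraries and tiles. In 159 members these positions had at least 20 calls in each library when summed over the tile. Their level was between 25% and 75% in every library in 63 members (39.6%), against 276 of 13917 eligible tiles (1.98%). Among all tiles in the band throughout, whatever their span, the share was much the same, at 146 of 374 (39.0%). Left-out positions were in the band in every library in 28 of 66 uniform, 24 of 57 mixed and 11 of 36 split tiles. On the mean of the 6 libraries they were intermediate in 58 of 66 uniform (87.9%), 41 of 57 mixed (71.9%) and 16 of 36 split tiles (44.4%). Among all tiles in the band throughout they were so in 314 of 374 (84.0%), against 72.3% of members. They lay a median of 11.6 points above the tile level in split tiles and 0.0507 points above it in uniform tiles.

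Known imprinted loci contributed a single member. Within 5000 bp of 30 genes with maternally methylated control regions 84 tiles were eligible, and 1 (1.19%) was a member, against 2.69% of all eligible tiles. It lay inside Gnas, a locus with several imprinted promoters that encodes the stimulatory G protein alpha subunit. The tile chr2:174345001-174345500 had 60.6%, 58.3% and 69.9% in hemicastrated mice and 66.7%, 55.6% and 70.4% in sham mice. It had 8 positions between 47.0% and 76.5% with 21.7 reads per position. The widest 95% interval of a library, with all calls taken as independent, was 8.09 points to either side. It was no member with at least 20 reads per position, at least 10 positions, a band of 30% to 70% or a span under 10 points. Hemicastrated and sham values overlapped, and of the other measured Gnas tiles chr2:174328501-174329000 was at 8.61% and chr2:174337501-174338000 at 92.2%.

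Of the 84 tiles 54 were under 25% in every library, 23 were over 75% and 6 were other tiles. By mean level 39 of the 84 lay between 5% and 20%. Where Peg10, a gene derived from a retrotransposon, meets Sgce, which encodes a sarcoglycan, chr6:4747001-4747500 had 11.8%, 5.85% and 14.5% in hemicastrated mice and 8.64%, 6.44% and 5.35% in sham mice. At an end of Plagl1, a zinc finger gene, chr10:13090501-13091000 had 11.7%, 6.21% and 9.03% in hemicastrated mice and 10.8%, 8.19% and 5.99% in sham mice. These tiles were thus low in all 6 testes and the 2 groups of mice overlapped.

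Further tiles of this list are given by their means. At Nap1l5, which lies in an intron of Herc3, the mean was 10.6% with libraries from 8.43% to 14.3%, and in Airn, the antisense RNA of Igf2r, it was 9.98% with libraries from 6.64% to 11.7%. At Kcnq1ot1, the antisense RNA in Kcnq1, it was 8.27%, and at Nnat, a gene of a small membrane protein, 9.13%. Inside Peg3, a zinc finger gene, the tile chr7:6707501-6708000 had a mean of 68.0% but spread from 54.1% to 85.3%, and missed the rule by its span. In Trappc9 the tile chr15:73058001-73058500 had a mean of 28.8% and missed the rule by 2 libraries under 25%, hemicastrated replicate 2 at 24.7% and sham replicate 2 at 22.9%.

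Near 8 genes of paternally methylated loci 17 tiles were eligible and 0 were members, with 8 under 25%, 5 over 75% and 4 other tiles. The 8 low tiles lay in or at Igf2, Rasgrf1 and Zdbf2 and near Dlk1. None of the 17 was near H19, so these counts say nothing of its control region. Which other control regions the tiles covered was not examined. Only 1 of the 17 had a mean inside the band, 30.2%, the tile chr12:109549501-109550000 inside Meg3, a long noncoding RNA. This tile missed the rule by its sham libraries, all under 25%, and by its span of 34.1 points. It had 51.4%, 29.5% and 40.0% in hemicastrated mice and 19.05%, 17.3% and 24.2% in sham mice, which did not overlap, and no tile passed edgeR's test, as given below. At an end of Zdbf2, a zinc finger gene, and inside Gpr1, means were 17.7% and 17.3% in the neighbouring tiles chr1:63200001-63200500 and chr1:63200501-63201000. Tiles are in this list by their distance from a gene. Whether these tiles hold a control region, and on which parental allele it would be methylated, was not examined, so their low levels show no loss of a paternal mark. In Dlk1, a gene of a Notch-type ligand, the mean was 17.1%, with libraries from 2.27% to 29.1%. The 5 high tiles, in Rtl1, a retrotransposon-derived gene, and in Rian, a noncoding RNA, were at 88.5% to 97.1%.

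**Figure D5:**
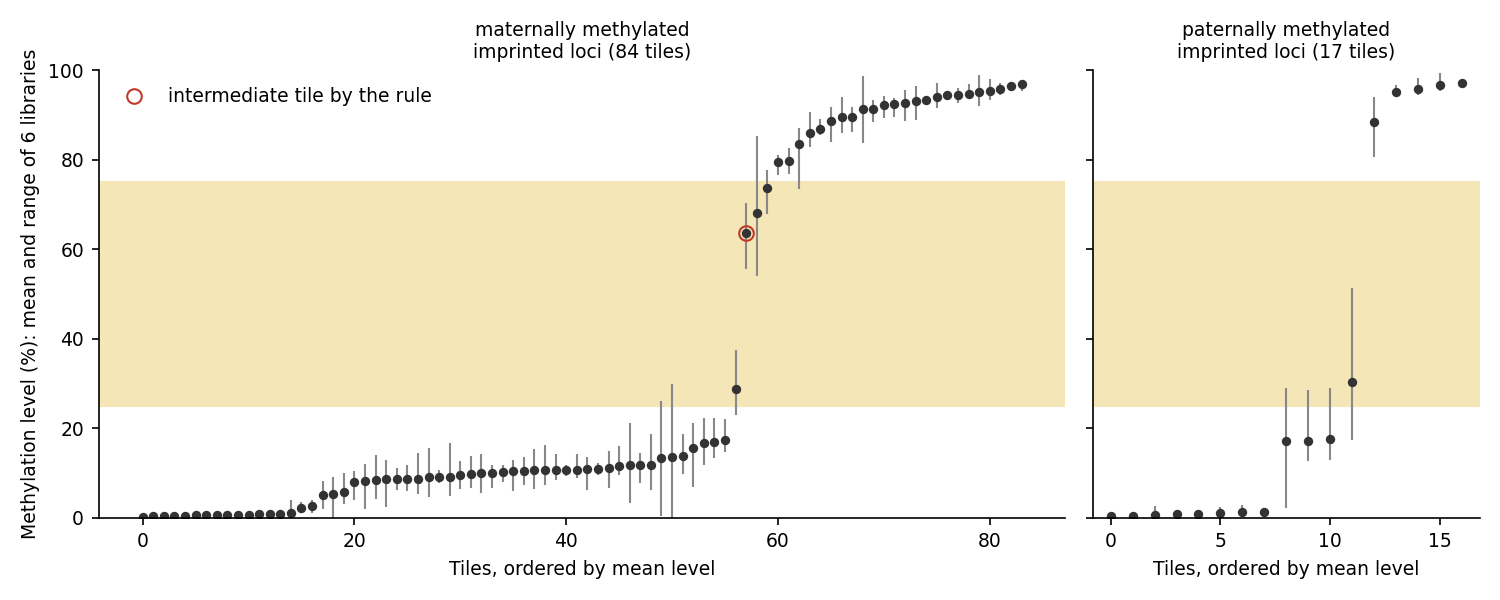
Mean methylation level of a tile (points, y axis, %) with the range over 6 libraries (vertical lines) for eligible tiles at maternally (84) and paternally (17) methylated imprinted loci, ordered by mean level on the x axis, with the 25% to 75% band shaded and the only member circled. The circled tile in Gnas is at 63.6%, and most of the tiles at maternally methylated loci lie under 20% or over 75%.

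The shares of members in the other gene lists are set against the 2.69% of all eligible tiles. Near somatic cell genes of the testis 2 of 64 eligible tiles (3.12%) were members, both uniform. Inside Inhbb, the gene of the inhibin beta B subunit made by Sertoli cells, chr1:119419001-119419500 had 50.7%, 59.0% and 47.1% in hemicastrated mice and 52.3%, 60.2% and 54.7% in sham mice. Inside Pecam1, the gene of an endothelial adhesion protein, chr11:106699501-106700000 had 60.3%, 54.4% and 54.5% in hemicastrated mice and 56.7%, 60.6% and 58.9% in sham mice. Near sperm formation genes 0 of 43 tiles were members, with 31 under 25% in every library, 9 over 75% and 3 other tiles. Near germline genes that are methylated in somatic tissue 0 of 29 were, with 14 under 25%, 4 over 75% and 11 other tiles. No RNA data were used here, so the labelled tissue was not checked by expression.

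Of the gene families, zinc finger genes named Zfp had 12 members of 794 eligible tiles (1.51%), with 4 uniform, 5 mixed and 3 split tiles. The highest of them was at Zfp169, at 70.4%, and the lowest in Zfp239, at 28.4%. Near Hox genes 1 of 140 tiles was a member, 1830 bp from Hoxb9, which encodes a transcription factor of body axis patterning. This tile, chr11:96269001-96269500, had 53.6%, 52.1% and 58.5% in hemicastrated mice and 65.2%, 55.0% and 56.0% in sham mice, while its measured neighbours were at 3.17% and 1.96%. Clustered protocadherins had 0 members among 52 tiles, and olfactory receptors had 4 among 73 (5.48%), 3 mixed and 1 uniform.

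Of the runs of adjacent members 1266 were single tiles, 24 had 2 tiles and 2 had 3 tiles. Most members had no measured neighbour, as given above, so a run of 1 tile does not show that the level ends there. The run inside Fbrsl1, a gene related to fibrosin, chr5:110378001-110379500, had tile means of 72.7%, 65.2% and 55.3% in chromosome order. The other run of 3, chr2:98666001-98667500, lay outside genes with tile means of 51.1%, 50.2% and 51.3%. It had 985, 1012 and 2942 reads per position and library, against the median of 64.8 over members, and repeats were not annotated in the tables used here, so the part of this coverage in its level was not tested. Of the runs of 2, the first in genome order, chr1:118054001-118055000, lay outside genes with tile means of 62.3% and 62.4%. Of all members 9 had more than 500 reads per position. Among the 3 tiles with the most reads, chr2:101350501-101351000, was mixed at 65.2% with 1017 reads per position.

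The levels of the members were close in hemicastrated and sham mice, as the span limit of the rule requires, and nothing is read from this. The unweighted mean over members was 55.7%, 56.0% and 55.2% in hemicastrated and 55.2%, 57.0% and 56.7% in sham mice. The groups averaged 55.6% ± 0.406 and 56.3% ± 0.933 (SD, n = 3 each), a difference, hemicastrated minus sham, of -0.644 points. All eligible tiles differed by -0.334 points on the same measure. By kind the difference was -0.982 points in uniform, -0.786 in mixed and -0.284 in split tiles.

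No tile was called between hemicastrated and sham mice by edgeR's quasi-likelihood test with Benjamini-Hochberg adjustment at 0.05, with 0 of 48964 tested tiles (0.0%) and 0 members. At an unadjusted p under 0.05 there were 2075 tiles (4.24%) and 0 members, and limma called 0 tiles. The hemicastrated and sham libraries did not overlap in 4643 of 48989 tiles (9.48%) and in 125 members (9.47%). In 47 members every hemicastrated library was above every sham library, against 4.7% of all tiles, and in 78 members every one was below, against 4.77%.

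The members with the smallest edgeR p in each direction are named by rule and none passed the test. Higher in hemicastrated mice were tiles inside Snx8, a sorting nexin gene (73.3% ± 0.475 against 64.7% ± 4.13 in sham mice), inside Pla2g4e, a phospholipase gene (69.6% ± 6.68 against 61.7% ± 1.24), and inside Dhx34, a helicase gene of nonsense-mediated decay (64.8% ± 2.51 against 57.5% ± 5.52). Lower in hemicastrated mice were a tile outside genes on chromosome 9 (41.0% ± 3.68 against 50.9% ± 1.40 in sham mice) and a tile at an end of Gm7099 (50.9% ± 1.78 against 59.3% ± 1.72). Also lower was a tile at an end of D430020J02Rik (41.3% ± 1.18 against 49.8% ± 4.45). That tile lay outside Ncapg2, a condensin subunit gene, but within 1000 bp of an end of it. Errors are SD with n = 3 each, unadjusted edgeR p-values ran from 0.0531 to 0.148, and the adjusted p was 1 for all 6.

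At the limits of the rule, tiles just inside and just outside had nearly the same levels. Just inside the lower limit were tiles in Fry (lowest library 25%) and Zfp239 (25.1%), and just outside were a tile of chromosome 12 (24.937%) and a tile in Fggy (24.92%). At the upper limit tiles near Slc2a8 and Lrrc4c had a highest library of 75%, and tiles outside, on chromosome 3 and in Asb3, had 75.0193% and 75.04%. At the span limit a tile at Gm15778 (14.9 points) and another near Dennd5b (14.9 points) were members, and a tile in Acmsd (15 points) and a tile of chromosome 17 (15.0137 points) were not.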

How the data were processed

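Bisulfite reads of MspI fragments gave methylation levels in 6 right testes, 3 from hemicastrated and 3 from sham mice. Per the labels' protocols, DNA was cut with MspI, end-repaired, size-selected, converted with bisulfite, amplified and sequenced. Per the submitters' processing notes, Bismark and build GRCm38 were used; its version, read trimming and PCR copy removal are not stated there. The authors deposited raw methylated and unmethylated read counts and the level in percent for each position, per the file headers. The percent was not used, and all levels were recomputed from the counts. The files name no strand or context, and 99.99% of the eligible positions inside RefSeq promoter windows (build GRCm38.p6) fell on a CG dinucleotide. The libraries held between 64504011 and 78630942 calls, and a member tile had a median of 437.5 to 580.0 calls in a library, summed over its positions. The widest Wilson 95% interval of a member in a library had a median of 4.75 points to either side (largest 13.2). Such intervals cover counting error only, and they can be too narrow even for that. They take all calls of a tile as independent, though calls at neighbouring CpGs can come from the same read. PCR copies are not independent molecules either.

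Tiles and shares were computed with Python 3.11.15, numpy 2.4.6 and pandas 2.3.3. Groups were compared with edgeR 4.0.16 in R 4.3.3, by its quasi-likelihood F test on methylated and unmethylated counts with a column per library and a methylation by group term, with Benjamini-Hochberg adjustment at 0.05 over all eligible tiles. Tiles with no methylated or no unmethylated read were left out. The alternative with limma 3.58.1 used log2 ratios of the deposited counts, 1 being added to each. The code was tested on simulated data. The rule for named tiles took the 6 uniform members with at least 10 positions and the largest share of positions intermediate in every library (ties by smaller library span, then more positions), the 4 split members with the largest SD of position levels, the 3 longest runs, the 3 members with the most positions, the 3 with the most reads per position, the 3 with the smallest edgeR p in each direction, the 2 nearest each limit on either side, and every member in or within 5000 bp of a gene of 9 lists. Members, lists and tests were chosen with earlier results of these data known. The 6 mice are separate animals per the labels. Nothing in the labels pairs mice by replicate number, so the reported fit has no block. Alternatives changed the minimum of reads or positions, the tile grid, the averaging, the band, the span, the test and the set of libraries.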

Additional observations from a re-analysis of the deposited data

How the results depend on the processing

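The number of intermediate tiles was 355 with at least 10 positions per tile, 831 with a band of 30% to 70% and 828 with a span under 10 points. It was 765 when both strands of each CpG had to be measured and 464 when the median of position levels stood for the sum, both chosen after seeing the data, and 1479 to 1601 with a library left out. In these 5 settings in that order, the share of positions intermediate in every library was 40.3%, 37.2%, 20.3%, 41.0% and 55.8%, and that of uniform tiles 43.4%, 35.9%, 14.7%, 41.7% and 60.6%. The share of split tiles was 21.7% with 10 positions, 57.9% with the smaller span, 23.1% with both strands and 2.16% with the median. With a minimum of 20 and of 5 reads per position, 34.8% and 29.2% of positions were intermediate in every library.

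With a library left out, that share was 33.9% to 36.1%, that of uniform tiles 31.3% to 35.4% and that of split tiles 35.2% to 38.3%. Near a gene end lay 18.0% of members with 10 positions, 17.6% with both strands, 18.97% with the median and 6.74% when only transcription starts counted, which was chosen after seeing the data. Tiles shifted by 250 bp gave 34.2% (41 of 120) between a low and a high neighbour. Left-out positions were intermediate in 51.0% of members with the narrower band and in 31.3% with the smaller span. At imprinted genes there were 0 members with 20 reads, with 10 positions, with the narrower band, with the smaller span and with the median, 2 with 5 reads and 2 within 50000 bp, and 1 to 2 with a library left out, with 2 only without sham replicate 3. The cause of these shifts was not tested.

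With a robust prior edgeR called 1 tile of 48964, and without a library 0 to 1, with 1 only without hemicastrated replicate 2; members stayed at 0 in each. Same-numbered libraries deviated together with r of 0.0285, 0.0179 and 0.0152 across tiles, which are not independent. Differently numbered libraries had r from -0.0203 to 0.0022, all lower. Values this small cannot settle whether replicate numbers pair mice, and the labels state no pairing. With the replicate block edgeR called 0 tiles, with 2094 at an unadjusted p under 0.05. The difference of the mean member level was -1.25 to -0.354 points with a library left out. The shares of members inside and outside genes moved by less than their counting interval in each of 15 alternatives. Depth limits the positions: a member tile listed a median of 16.5 positions and had a median of 8 with 10 reads in every library. The sequence around most members was not analysed here.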
